A study of Mus musculus with 14 samples.

Results

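The chitinase-like and alternative activation genes examined here are Chil1, Chil3, Chil4, Retnla, Retnlg, Arg1, Il4ra and Cd163, 8 of the 54524 genes in the count table. They were matched by Ensembl identifier to the GENCODE vM21 annotation of GRCm38, and the set was selected on the counts of day 3 against healthy samples, where Chil3 and Chil4 were among the largest rises. That contrast is therefore given as a description with no test. RNA was sequenced in bulk from liver sinusoidal endothelial cells (LSECs) of male Balb/c mice, 10 to 12 weeks old per the labels, while the methods give a somewhat different age range. Healthy mice (4 samples) were not injected. The other mice received 1 intraperitoneal injection of 0.5 µl CCl4 per g body weight in mineral oil, a solvent that injures hepatocytes, and LSECs were taken on day 1 (2 samples), day 3 (4 samples) or day 7 (4 samples). Per the paper, 2 further day 1 samples were not sequenced because their RNA quality was too low. None of the 14 samples is labelled as oil alone. The sort kept live cells with CD32 that lacked F4/80 and UV autofluorescence, and the methods, but not the labels, also required the absence of CD45.

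Alternative activation is the state that macrophages take up when interleukin-4 or interleukin-13 binds a receptor built on the Il4ra chain and STAT6 carries the signal to the nucleus. Chil3, Retnla and Arg1 are textbook target genes of this pathway in mouse macrophages, but neutrophils and their precursors also make chitinase-like and resistin-like proteins, and hepatocytes make arginase 1 for the urea cycle. Chitinase-like proteins bind chitin-type sugars and have lost the enzyme activity of true chitinases. LSECs themselves are known for clearing blood-borne waste through scavenger receptors rather than for these genes.

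The sequence just upstream of the gene is shown for the 2 chitinase-like and the 2 resistin-like family pairs, because each pair sits side by side on a chromosome and its members are near copies that were counted at different levels. They were read from RefSeq (GRCm38.p6), which held an entry for 7 of the 8 genes, all but Arg1, and each ends at or before the start of the gene in the annotation. Chil3 lies at chr3:106167565-106167814 and Chil4 at chr3:106219508-106219729, both on the minus strand, and Retnla lies at chr16:48842359-48842550 and Retnlg at chr16:48872358-48872607, both on the plus strand. Letters run 5′ to 3′ and capitals mark matches to 3 short motifs searched on both strands.
Chil3: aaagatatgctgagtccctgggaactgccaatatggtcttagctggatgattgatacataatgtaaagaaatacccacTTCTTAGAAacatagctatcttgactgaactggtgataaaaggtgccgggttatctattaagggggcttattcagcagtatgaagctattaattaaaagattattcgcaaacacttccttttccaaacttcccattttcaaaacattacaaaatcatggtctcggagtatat
Chil4: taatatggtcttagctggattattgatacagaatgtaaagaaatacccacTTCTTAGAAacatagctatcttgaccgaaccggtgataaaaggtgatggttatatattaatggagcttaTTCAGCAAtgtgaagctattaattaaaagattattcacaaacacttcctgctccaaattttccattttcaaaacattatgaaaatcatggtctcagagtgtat
Retnla: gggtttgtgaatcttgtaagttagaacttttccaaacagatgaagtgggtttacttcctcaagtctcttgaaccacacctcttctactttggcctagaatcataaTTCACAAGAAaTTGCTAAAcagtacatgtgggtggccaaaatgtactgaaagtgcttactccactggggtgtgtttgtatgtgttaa
Retnlg: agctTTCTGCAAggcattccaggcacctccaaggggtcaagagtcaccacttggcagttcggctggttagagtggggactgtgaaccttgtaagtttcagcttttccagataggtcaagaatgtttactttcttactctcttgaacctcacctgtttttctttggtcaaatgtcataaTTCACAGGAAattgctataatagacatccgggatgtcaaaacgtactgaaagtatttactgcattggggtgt
The motifs were TTCNNNNGAA, the spacing that STAT6 is known to prefer, TTCNNNGAA, the spacing of other STAT factors, and TTGCNNAA, a core bound by C/EBP factors. Chil3 and Chil4 shared 1 run of 44 identical letters that holds TTCTTAGAA, a TTCNNNGAA match at offset -172 from the RefSeq start in Chil3 and -200 in Chil4. Retnla held TTCACAAGAA at -145 and Retnlg TTCACAGGAA at -72, both matches to TTCNNNNGAA, and their longest shared run was 12 letters. A match to TTGCNNAA lay at -131 in Chil4, at -134 in Retnla and at -246 in Retnlg, and no match overlapped another. The window searched in each gene was longer than the stretch printed here and also covered the first bases of the transcript. Of 32851 promoter windows of the length searched, 6.953% held TTCNNNNGAA, 8.298% held TTCNNNGAA and 10.8% held TTGCNNAA. Cd163, Chil1 and Il4ra held none of the 3 motifs in this window. The matches are letters only, and binding was not measured.

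Each sample held between 46401496 and 103912264 counts, and between 22986 and 34768 genes had at least 1 count. The lowest gene number was that of day 3 replicate 4, while day 3 replicates 1 and 2 had the highest numbers, 34678 and 34768. Expression is given as CPM, the count scaled to the TMM-adjusted library size. A gene with fewer than 3 counts in a library was treated as undetected, a limit set by counting error alone. All 10 LSEC markers examined, such as Stab2 and Lyve1, were counted in every sample, and their summed level lay between 8915 and 18920 CPM. Ptprc, which encodes CD45, was also counted in every sample, at 36.9 to 110 CPM in healthy LSECs, 128 and 177 at day 1, and 46.7 to 270 on day 3, with 134 to 154 on day 7. Markers of 2 other cell types set single libraries apart. The summed level of 12 neutrophil markers was 21.3 to 142 CPM in healthy LSECs, 6435 and 2597 in day 1 replicates 1 and 2, 3276, 1890, 57.7 and 19.5 in day 3 replicates 1 to 4, and 120 to 185 at day 7. S100a8 and S100a9 made up most of this sum in every sample, as with 2140 and 3692 of 6435 CPM in day 1 replicate 1. The summed level of 10 hepatocyte markers was 278, 212 and 411 CPM in healthy replicates 1 to 3 and 8987 in healthy replicate 4. In bulk RNA, fewer cells of a type and less RNA per cell cannot be told apart.

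The 8 genes did not move as 1 group. At day 1, Chil1, Chil3, Retnlg and Il4ra were higher than in healthy LSECs, and Chil4, Retnla, Arg1 and Cd163 did not pass edgeR's test, although DESeq2 also called Chil4 (adjusted p = 0.0493). Among the 26626 genes tested, edgeR's quasi-likelihood test called 4.06% at day 1, 2.42% as higher, against 4 of the 8 genes here, all higher. By day 7, none of the 8 genes passed the test against healthy LSECs, in a comparison that called 3.18% of all genes, while 3 had an unadjusted p under 0.05, DESeq2 called 2 and limma-voom none. The 4 healthy samples are shared by these comparisons and also entered the choice of the genes. All 8 genes passed the filter on low counts. Chil4 had its highest counts in day 3 replicates 1 and 2, and it still passed when either of them was left out. It did not pass a stricter filter of at least 1 CPM in 2 samples. Both day 1 samples lay above all healthy samples for 5 of the 8 genes, as for 20% of all tested genes, and all day 7 samples did so for 2, Chil3 and Retnlg, as for 8.72%. On day 3, which chose the set, the counts were 3 genes (Chil1, Chil3 and Chil4) and 7.53%. Chil4 is among them on 1 count each in day 3 replicates 3 and 4, below the floor of 3 counts. On that day, 4 of the 8 genes were at least 2-fold higher, as were 23.6% of all tested genes. Between day 7 and day 1, 5 of the 8 genes had every day 7 sample below both day 1 samples, as had 23.1% of all tested genes.

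**Figure D1:**
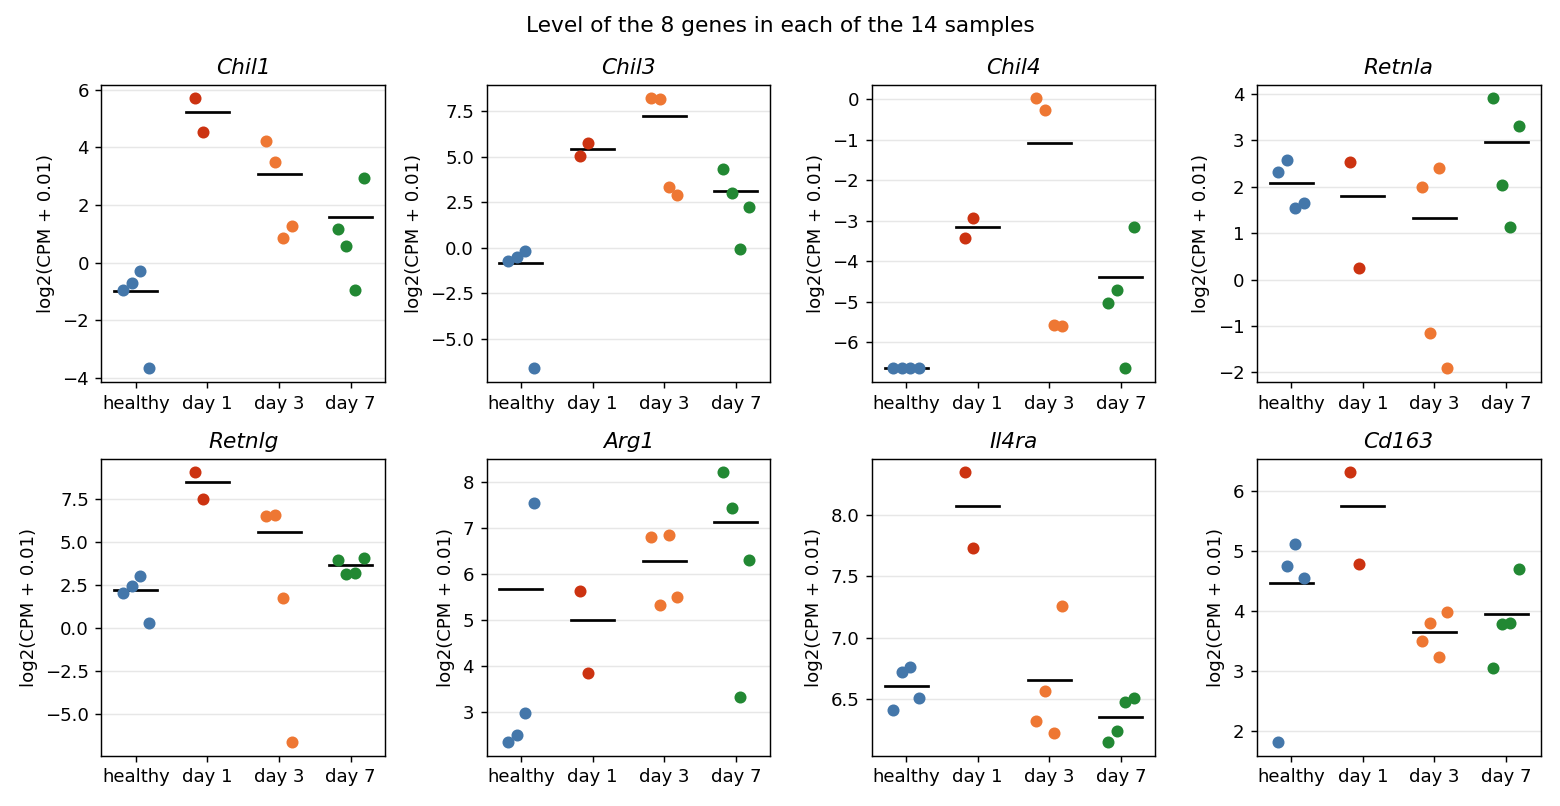
Each panel shows 1 gene, with the 4 groups on the horizontal axis and log2 of CPM plus 0.01 on the vertical axis. Points are single samples in the order of their replicate numbers, black lines are log2 of the group mean, and samples with no count sit at the bottom of the panels of Chil3, Chil4 and Retnlg. Both day 1 points lie above all healthy points for Chil1, Chil3, Chil4, Retnlg and Il4ra.

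Il4ra encodes the chain through which cells bind interleukin-4 and interleukin-13, and it was the member with the steadiest level. Healthy LSECs held 85.1, 106, 108 and 91.2 CPM in replicates 1 to 4, day 1 samples 325 and 212, day 3 samples 80.1, 95.005, 74.7 and 153, and day 7 samples 71.1, 75.9, 88.9 and 91.1. Both day 1 samples stood above every other sample. The ranges of the other 3 groups overlapped, and day 3 replicate 4 was the highest among them. At day 1 the mean was 269 ± 80.0 CPM (SD, n = 2) against 97.6 ± 11.2 (n = 4) in healthy LSECs, a log2 fold change of 1.46 (SE 0.27, adjusted p = 0.00793 with edgeR's quasi-likelihood test and Benjamini-Hochberg adjustment). Without day 1 replicate 1 the log2 fold change was 1.09 and the adjusted p of the same edgeR test 0.328, while each of the other 13 libraries could be left out without losing the call. Against day 1, the day 7 level was lower by a log2 fold change of -1.72 (SE 0.27, edgeR adjusted p = 0.00256), in a comparison that called 8.04% of all genes, 4.4% as lower, and that holds no sample used to choose the set. Day 7 differed from healthy by -0.26 on the log2 scale (SE 0.23, edgeR adjusted p = 0.552). Il4ra overlaps an antisense gene, Gm44876, over 571 exonic bases. The library kit does not mark strand, so reads there cannot be assigned. Gm44876 was counted at 0.598 to 2.71 CPM over all samples, at 0.598 and 0.803 in day 1 samples and at 0.938 to 1.47 in healthy samples, and its part in the Il4ra counts was not tested.

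The level of Il4ra was also set beside the summed LSEC markers, a ratio chosen after the values were seen. It equalled 0.450% to 0.655% of the LSEC marker sum in healthy samples, 2.78% and 1.47% at day 1, and 0.628% to 1.18% on day 3, with 0.554% to 0.851% on day 7. The markers in that sum moved in both directions at day 1. Lyve1 lay at 3020 and 3397 CPM there against 271 to 534 in healthy samples, and Kdr at 592 and 761 against 2088 to 2436. Relative to the neutrophil marker sum, Il4ra moved the other way, from 73.9% to 427% in healthy samples to 5.06% and 8.17% at day 1. Day 3 replicates 1 and 2 had neutrophil marker sums of 3276 and 1890 CPM and Il4ra levels of 80.1 and 95.005 CPM, within or just under the healthy range. The part of neutrophils or other cells in the Il4ra values was not tested.

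The chitinase-like genes were nearly silent in healthy LSECs and were counted after CCl4. Chil1 (chromosome 1, 134182176 to 134190181) encodes a secreted chitin-binding lectin made by macrophages, neutrophils and stressed epithelia. Healthy replicates 1 to 4 held 0.509, 0.599, 0.811 and 0.0687 CPM, day 1 samples 52.1 and 23.1, day 3 samples 18.7, 11.2, 1.82 and 2.41, and day 7 samples 2.25, 1.48, 0.507 and 7.63. Day 1 was the highest group with no overlap with the others, every day 3 sample stood above every healthy sample, and day 7 overlapped both day 3 and healthy. The day 1 mean of 37.6 ± 20.5 CPM (SD, n = 2) was 75.6 times the healthy mean of 0.497 ± 0.312 (n = 4), a log2 fold change of 6.23 (SE 1.14, edgeR adjusted p = 0.00775). Leaving out day 1 replicate 1 gave 5.52 with an edgeR adjusted p of 0.0729, the only 1 of the 14 omissions that lost the call.

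At day 7 Chil1 had a mean of 2.97 ± 3.19 CPM (SD, n = 4), a log2 fold change against healthy of 2.58 (SE 0.93, unadjusted p = 0.0153, adjusted p = 0.137 with edgeR). Between day 1 and day 7 it fell by 3.66 on the log2 scale (SE 1.04, edgeR adjusted p = 0.0463). That call was narrow, since it held in 5 of the 14 fits that left out 1 library, and the log2 fold changes of these fits lay between -4.66 and -2.91. At day 3 the fitted difference from healthy was 4.09, given as a description.

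Chil3 (chromosome 3, 106147554 to 106167564, minus strand) encodes a secreted chitinase-like protein that is abundant in alternatively activated macrophages and is also found in neutrophils. Healthy replicates 1 to 4 held 0.589, 0.681, 0.884 and 0 CPM, day 1 samples 33.2 and 54.2, day 3 samples 296, 288, 10.1 and 7.39, and day 7 samples 20.4, 8.17, 0.948 and 4.66. All 10 samples from injected mice stood above the 4 healthy ones, although the lowest day 7 sample did so by little. Day 3 was split, with replicates 1 and 2 above both day 1 samples and replicates 3 and 4 below them. At day 1 the log2 fold change was 6.33 (SE 1.52, edgeR adjusted p = 0.0321), from a mean of 0.539 ± 0.380 CPM (SD, n = 4) to 43.7 ± 14.8 (n = 2). This call was lost without any 1 of the 4 healthy or the 2 day 1 samples, with log2 fold changes of 5.90 to 6.68 and edgeR adjusted p between 0.0533 and 0.138. The day 7 difference from healthy was 3.99 (SE 1.31, unadjusted p = 0.00915, edgeR adjusted p = 0.108), and that between day 7 and day 1 was -2.35 (SE 1.34, edgeR adjusted p = 0.302). At day 3 the fitted difference from healthy, which chose the gene, was 8.12, with a mean of 151 ± 164 CPM (SD, n = 4).

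Chil4 (chromosome 3, 106201490 to 106219507, minus strand) encodes a close relative of Chil3 known mainly from allergic airways. It had no count in any of the 4 healthy samples, 7 and 11 counts at day 1, 83, 48, 1 and 1 at day 3, and 2, 2, 0 and 9 at day 7. Only day 3 replicates 1 and 2 held more than 11 counts. Against the floor of 3 counts per healthy library, the day 1 mean of 0.102 CPM was at least 3.13-fold higher and the day 3 mean of 0.460 CPM at least 14.1-fold higher. The day 7 mean of 0.0377 CPM lay near that floor of 0.0327 CPM. The edgeR adjusted p was 0.140 at day 1 and 0.192 at day 7, with unadjusted values of 0.0133 and 0.0314. Chil4 took 0.251% and 0.223% of their joint counts at day 1 and 0.338% (95% Wilson interval 0.273% to 0.419%) and 0.282% (0.213% to 0.374%) in day 3 replicates 1 and 2. The intervals cover counting error only.

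Reads of these neighbours can be confused. The longest protein-coding transcripts of Chil3 and Chil4, 1539 bases each, are identical at 94.4% of aligned positions and share a run of 136 bases, and 4.93% of the 100-base words of Chil3 occur in other genes (Chil4 and Gm6522). The Chil4 counts are therefore uncertain, and how many of them are reads of Chil3 was not tested. In day 7 replicate 4, with 9 Chil4 counts, the Chil4 share was 2.15% (95% Wilson interval 1.13% to 4.03%). Retnla and Retnlg are less alike, with 84.5% identity, and share no 100-base word with another gene.

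The 2 resistin-like genes lie next to each other on chromosome 16 and behaved differently. Retnlg (48872621 to 48874496) encodes a secreted cysteine-rich protein of bone marrow and neutrophils. Healthy replicates 1 to 4 held 3.99, 5.44, 7.92 and 1.18 CPM, day 1 samples 523 and 175, day 3 samples 88.0, 95.04, 3.32 and 0, and day 7 samples 15.5, 8.80, 8.95 and 16.8. Day 1 stood above every other sample, and day 3 ranged from above all healthy samples to no count at all. All 4 day 7 samples were above the healthy samples, a separation without a passed test. The day 1 mean of 349 ± 246 CPM (SD, n = 2) was 75.4 times the healthy mean of 4.63 ± 2.81 (n = 4), a log2 fold change of 6.24 (SE 1.61, edgeR adjusted p = 0.0465). The call was lost in 12 of the 14 fits that left out 1 library, with log2 fold changes between 5.22 and 6.81, and it held without day 3 replicate 3 or 4. Day 7 differed from healthy by 1.43 (SE 1.26, edgeR adjusted p = 0.546) and from day 1 by -4.80 (SE 1.53, edgeR adjusted p = 0.0707).

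Retnla (48842551 to 48844461) encodes a secreted protein that interleukin-4 and interleukin-13 induce strongly in macrophages. Its levels were 4.95, 5.98, 2.91 and 3.14 CPM in healthy replicates 1 to 4, 5.82 and 1.18 at day 1, 3.97, 0.442, 5.32 and 0.255 at day 3, and 14.98, 4.07, 2.18 and 9.91 at day 7. All groups overlapped, and the highest samples were day 7 replicates 1 and 4. The log2 fold change against healthy was -0.28 at day 1 (SE 1.05, edgeR adjusted p = 0.947), -0.76 at day 3 as a description, and 0.88 at day 7 (SE 0.86, edgeR adjusted p = 0.596). Without day 1 replicate 2 the day 1 difference was 0.44, so its direction was not settled.

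**Figure D2:**
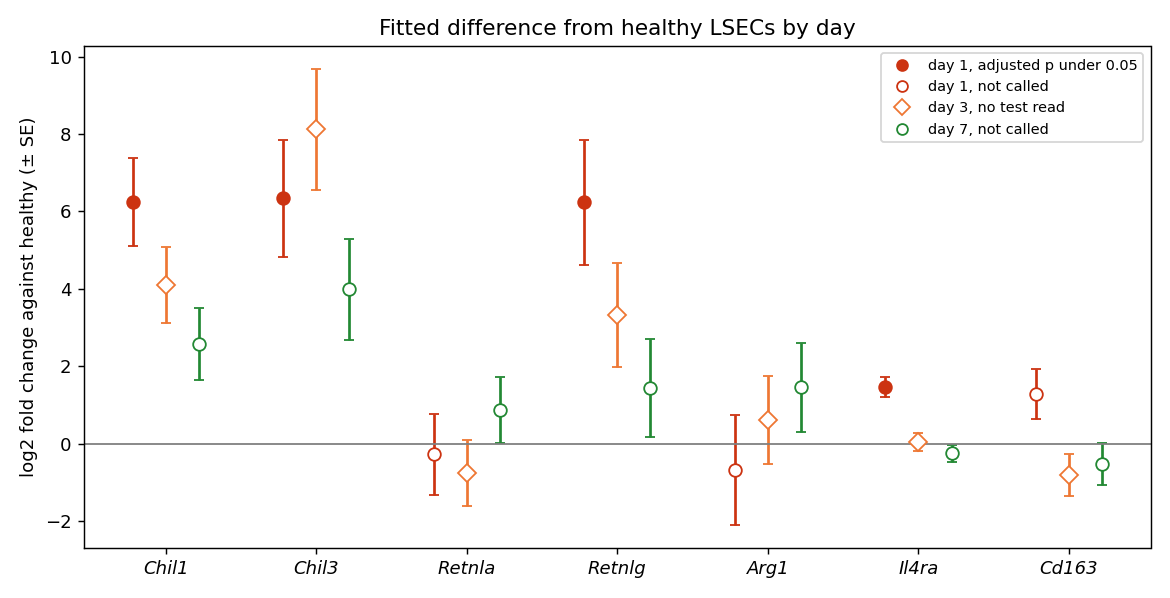
Points show the log2 fold change of each day against healthy LSECs in edgeR's fit, with 1 SE as error bars, for 7 of the genes, Chil4 being left out because it had no count in healthy samples. Filled circles mark the 4 differences past an adjusted p of 0.05, all at day 1, and diamonds mark day 3, for which no test was read.

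Arg1 (chromosome 10, 24915221 to 24927484, minus strand) encodes arginase 1, which splits arginine into ornithine and urea. Its levels were 5.04, 5.63, 7.84 and 185 CPM in healthy replicates 1 to 4, 49.1 and 14.3 at day 1, 110, 40.1, 114 and 45.4 at day 3, and 296, 171, 9.92 and 78.4 at day 7. Every sample from injected mice stood above healthy replicates 1 to 3 and all but day 7 replicate 1 stood below healthy replicate 4. With all samples, the log2 fold change was -0.68 at day 1 (SE 1.42, edgeR adjusted p = 0.886) and 1.45 at day 7 (SE 1.15, edgeR adjusted p = 0.496). Without healthy replicate 4 the same fit gave 2.34 at day 1 (edgeR adjusted p = 0.259), 3.54 at day 3 and 4.54 at day 7 (edgeR adjusted p = 0.0237). Healthy replicate 4 was also the library with 8987 CPM of summed hepatocyte markers.

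Set beside the hepatocyte marker sum, a ratio chosen after the values were seen, Arg1 stood at 1.81% to 2.65% in all 4 healthy samples, replicate 4 included. At day 3 it was 10.6%, 1.78%, 3.38% and 2.47% in replicates 1 to 4, and at day 7 it was 8.84%, 2.78%, 1.18% and 3.30%. At day 1, where the hepatocyte markers summed to 31.0 and 131 CPM, it reached 158% and 10.9%. For comparison, Otc, another urea cycle enzyme of hepatocytes, stood at 1.23% to 1.496% of the sum in healthy samples, 0% and 0.405% at day 1, and 0.436% to 1.08% on day 3, with 0.832% to 1.37% on day 7. Cps1, which starts the urea cycle, stood at 1.05% to 1.91% in healthy samples, 0.655% and 1.64% at day 1, and 0.335% to 2.54% on day 3, with 1.05% to 1.75% on day 7. The part of hepatocyte RNA in the Arg1 values was not tested.

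Cd163 (chromosome 6, 124304656 to 124330527) encodes a macrophage receptor that takes up complexes of hemoglobin and haptoglobin. Healthy replicates 1 to 4 held 3.52, 27.0, 35.0 and 23.6 CPM, day 1 samples 80.0 and 27.7, day 3 samples 11.3, 14.1, 9.45 and 15.8, and day 7 samples 8.28, 13.8, 14.1 and 26.0. Healthy replicate 1 was the lowest of all 14, and day 1 replicate 1 the highest. The differences from healthy were 1.27 at day 1 (SE 0.64, edgeR adjusted p = 0.332), -0.82 at day 3 as a description, and -0.52 at day 7 (SE 0.55, edgeR adjusted p = 0.628). The day 7 samples all lay below both day 1 samples, but the difference of -1.79 (SE 0.64, edgeR adjusted p = 0.101) did not pass. The 9 Kupffer cell markers, all counted in every sample, moved with Cd163 in several libraries, at 302 CPM in healthy replicate 1, 1409 to 1940 in the other healthy samples, 2208 and 1002 at day 1, and 567 to 1510 on day 3, with 640 to 1758 on day 7. Cd163 was 1.17% to 1.81% of that sum in healthy samples, 3.62% and 2.76% at day 1, and 0.770% to 2.79% on day 3, with 1.06% to 1.48% on day 7. Their part in the Cd163 values was not tested.

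Per kilobase of exon, the order of the genes changed with time. By mean RPKM, healthy LSECs were led by Arg1 (22.8, set by replicate 4) and Il4ra (16.3), followed by Retnlg (7.81), Retnla (7.09), Cd163 (4.08), Chil3 (0.330) and Chil1 (0.177). Retnlg led at day 1 (589) ahead of Il4ra (44.8), Chil3 (26.8), Arg1 (14.2) and Chil1 (13.4). Chil3 (92.2) and Retnlg (78.6) led at day 3, with SDs of 100 and 87.7 that exceed the means, so their order there is not resolved. At day 7 Arg1 (62.3, SD 55.5) came first by mean, ahead of Retnlg (21.1), Il4ra (13.6) and Retnla (12.998). In day 7 replicate 3, however, Arg1 stood at 4.45 RPKM, below Retnlg (15.1) and Il4ra (14.8). Chil4 was last in all 4 groups, at most 0.163 RPKM.

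By group mean, the neutrophil marker sum was highest at day 1, as were Chil1, Retnlg, Il4ra and Cd163, while the monocyte marker sum was highest at day 7. Lyz2, at 427 to 9304 CPM over all samples, made up most of the monocyte sum in every sample. Of the monocyte markers, only Lyz2 and Fn1 were themselves highest by mean at day 7. Ly6c2, Ccr2, Plac8 and Cx3cr1 were highest at day 3, and F13a1, Vcan and Itgam at day 1. The neutrophil marker sum was 5.63 higher at day 1 on the log2 scale (two-sided exact permutation test, p = 0.0667, the smallest that 2 against 4 samples allow) and 0.89 higher at day 7 (exact permutation p = 0.171). Of the 12 neutrophil markers, 4 were called higher at day 1 and none at day 7 by edgeR (3 with an unadjusted p under 0.05, 1 called by DESeq2 and 2 by limma-voom), and all 12 were counted in both day 1 samples. Camp, Ltf, Mpo and Elane overlapped with healthy samples at day 1, with Camp at 1.22 and 0.749 CPM against 0.343 to 2.77. The other neutrophil markers lay above all healthy samples there. In day 3 replicate 4, which had no Retnlg count, Camp, Ly6g, Elane and Stfa2l1 had no count either. The sum of 9 monocyte markers was 488 to 1317 CPM in healthy samples, 2169 and 1943 at day 1, 10174, 6301, 1595 and 1552 in day 3 replicates 1 to 4, and 4271 to 10250 at day 7. It was 1.39 higher at day 1 on the log2 scale (exact permutation p = 0.133) and 3.24 higher at day 7 (exact permutation p = 0.0286, 0.0762 adjusted over 8 marker lists). The part of these cells in the values of Chil1, Chil3, Chil4 and Retnlg was not tested.

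Set against the neutrophil markers, the genes differed in how closely they kept step, again as ratios chosen after the values were seen. These ratios follow S100a8 and S100a9, which made up most of the neutrophil sum, more than the other neutrophil markers. Retnlg stayed between 2.69% and 9.05% of the neutrophil marker sum in 13 of 14 samples while its own level ranged from 1.18 to 523 CPM, and it was at 0 in day 3 replicate 4. Chil1 equalled 0.322% to 0.572% of that sum in healthy samples, 0.809% and 0.891% at day 1, and 0.571% and 0.591% in day 3 replicates 1 and 2. In day 3 replicates 3 and 4, where the sum was lowest among injected mice, Chil1 equalled 3.16% and 12.4%, and at day 7 it equalled 0.382% to 4.12%. Chil3 equalled at most 0.623% in healthy samples, 0.516% and 2.09% at day 1, and 9.04%, 15.3%, 17.5% and 38.0% in day 3 replicates 1 to 4. All 4 day 3 ratios of Chil3 thus exceeded both day 1 ratios, although the neutrophil marker sum at day 3 ranged from 19.5 to 3276 CPM. Relative to the monocyte marker sum, Chil3 stood at 0% to 0.121% in healthy samples and at 1.53% and 2.79% at day 1. It stood at 2.91%, 4.58%, 0.633% and 0.476% in day 3 replicates 1 to 4, and at 0.0101% to 0.281% at day 7. That sum was mostly Lyz2, as with 8376 of 10174 CPM in day 3 replicate 1 and 9056 of 9347 in day 7 replicate 3. The ratio therefore follows Lyz2 more than the other monocyte markers.

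**Figure D3:**
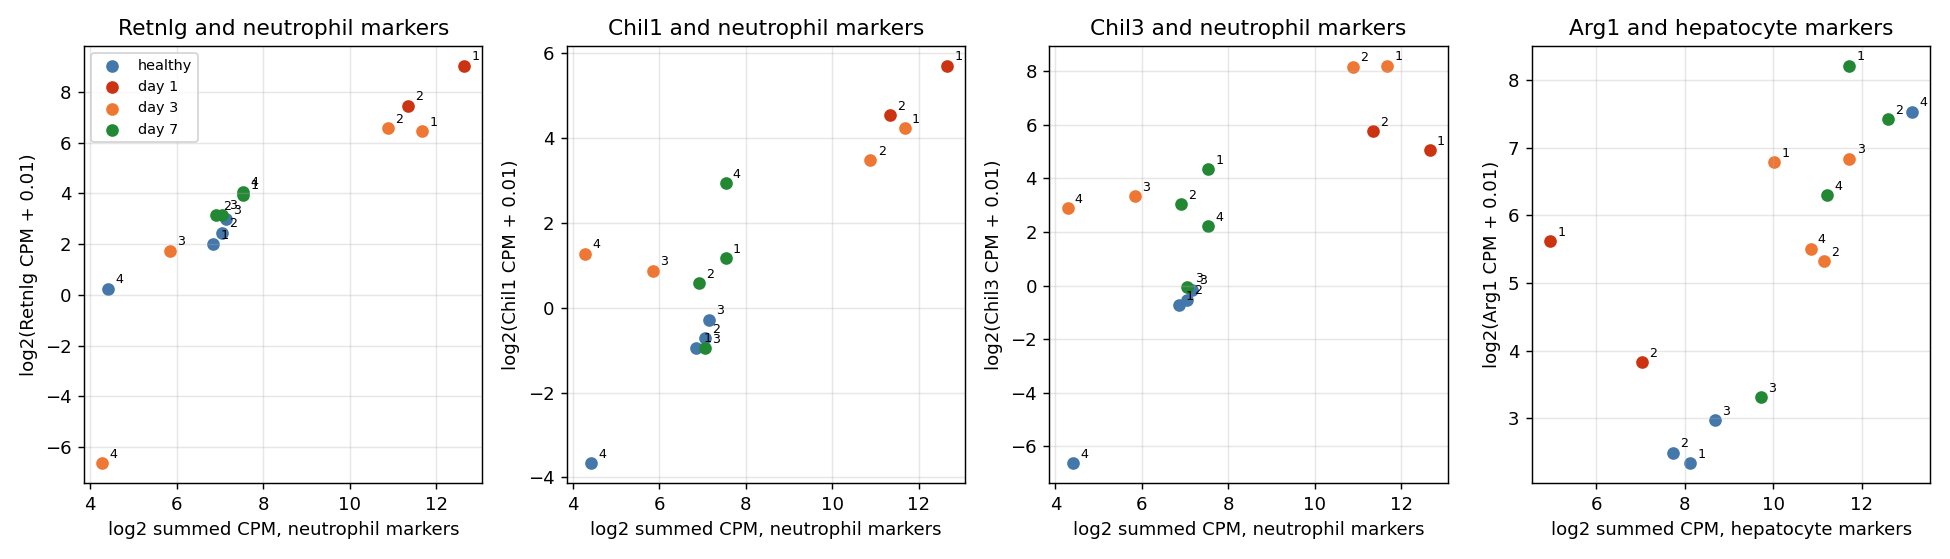
Each point is 1 sample, numbered by replicate and colored by group, with log2 of the summed CPM of the markers on the horizontal axis and log2 of the gene's CPM plus 0.01 on the vertical axis. Retnlg lies close to a line against the neutrophil markers except for day 3 replicate 4, which had no count, while Chil3 lies above the day 1 samples in day 3 replicates 1 and 2 and below them in replicates 3 and 4, and Arg1 in day 1 replicate 1 is high at the lowest hepatocyte marker sum.

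The sums of 3 of the other marker lists overlapped with the healthy samples on both days. Kupffer cell markers differed from healthy by 0.44 on the log2 scale at day 1 (exact permutation p = 0.8), eosinophil and basophil markers by 0.01 (exact permutation p = 1) and T cell and ILC2 markers, which include sources of interleukin-4 and interleukin-13, by 0.09 (exact permutation p = 0.8). At day 7 the same 3 sums differed by 0.02, 0.18 and 0.15 (exact permutation p = 0.971, 0.857 and 0.543). Within the eosinophil and basophil list, Ccr3 made up most of the sum. It lay at 3.76 to 35.0 CPM in healthy samples, 27.2 and 10.9 at day 1, and 9.34 to 27.3 on day 7. Mcpt8 lay at 0.126 to 1.30 CPM in healthy samples and at 0.0718 and 0.055 at day 1. Epx, eosinophil peroxidase, was counted only in day 3 replicates 1 and 2 (0.0605 and 0.153 CPM). Siglecf, a surface lectin of eosinophils, lay at 0.263 to 0.874 CPM in healthy samples and 1.85 and 1.60 at day 1. It lay at 0 to 3.81 CPM on day 3 and 1.55 to 4.65 on day 7. Of the 7 tested genes of this list, edgeR called none at day 1 or day 7, while DESeq2 called 1 and limma-voom 2 at day 7. Hepatocyte marker sums differed by -3.42 at day 1 and 1.89 at day 7 (exact permutation p = 0.2 and 0.229), stellate cell sums, fully below healthy at day 1 and above at day 7, by -0.81 and 3.29 (exact permutation p = 0.0667 and 0.0286), and LSEC sums, below healthy on both days, by -0.38 and -0.60 (exact permutation p = 0.0667 and 0.0286). None passed after adjustment over the 8 lists, where the smallest adjusted p was 0.178 at day 1 and 0.0762 at day 7. The LSEC markers did not all move with their sum. By edgeR, 2 of the 10 were called higher and 1 lower at day 1, and 0 higher and 1 lower at day 7.

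The genes related to these 8 by family or pathway were examined in 6 lists. Among the 5 other tested genes of the chitinase family, including Chid1 and Ctbs, none was called in any comparison by edgeR. An unadjusted p under 0.05 was reached by 1 of them in each comparison, DESeq2 called 1 at day 1 and 1 between day 7 and day 1, and limma-voom called 1 on each day and 2 between day 7 and day 1. Chid1, at 16.1 ± 4.29 CPM (SD, n = 4) in healthy LSECs and 7.97 ± 3.11 (n = 2) at day 1, had an unadjusted p of 0.00675 and an adjusted p of 0.0986 in edgeR. Chia1 and Chit1, the true chitinases, did not pass the filter on low counts. In the resistin family, Retn, the gene of resistin itself, had 85 and 49 counts at day 1 against 0, 0, 3 and 0 in healthy replicates 1 to 4 (edgeR adjusted p = 0.0196), 14 to 48 counts at day 3 (edgeR adjusted p = 0.0285) and 0 to 28 counts at day 7 (edgeR adjusted p = 0.0943).

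Among 16 other tested genes of interleukin-4 and interleukin-13 signaling, edgeR called none at day 1, where 5 had an unadjusted p under 0.05, DESeq2 called 0 and limma-voom 4. At day 3, Irs2, an adaptor of insulin and interleukin-4 receptors, rose by a log2 fold change of 1.82, while the partner chain Il13ra1 and the decoy receptor Il13ra2 fell by 0.82 and 1.80 on the log2 scale (edgeR adjusted p = 0.00383, 0.0127 and 0.0186). Irs2 was still higher at day 7, at 67.6 ± 17.9 CPM (SD, n = 4) against 20.7 ± 8.23 (n = 4), a log2 fold change of 1.71 (SE 0.29, edgeR adjusted p = 0.00979). The median log2 fold change of this list was -0.05, 0.15 and -0.09 on days 1, 3 and 7, beside -0.03, 0.18 and 0.02 over all tested genes.

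Of 14 genes of arginine metabolism other than Arg1, edgeR called 5 higher at day 1. They were Arg2, the mitochondrial arginase, Nos3, the endothelial nitric oxide synthase, the arginine transporter Slc7a1, and Srm and Odc1, which build polyamines. Arg2 went from 7.83 ± 3.62 CPM (SD, n = 4) to 57.7 ± 32.3 (n = 2), a log2 fold change of 2.88 (SE 0.70, edgeR adjusted p = 0.0343). Nos3 went from 102 ± 24.2 CPM (SD, n = 4) to 438 ± 24.4 (n = 2), a log2 fold change of 2.11 (SE 0.30, edgeR adjusted p = 0.00134). At day 3 Arg2, Slc7a1 and Srm were higher, with log2 fold changes of 2.64, 1.92 and 1.04. Arg2 was split there, at 88.8, 81.1, 12.8 and 12.4 CPM in replicates 1 to 4 against 3.50 to 12.3 in healthy samples. At day 7 Odc1 alone was called, lower by a log2 fold change of -1.15 (SE 0.24, edgeR adjusted p = 0.0253). Between day 1 and day 7, Nos3, Odc1, Srm and Slc7a1 fell and Agmat rose. Agmat lay at 0.0837 and 0.198 CPM at day 1 and 3.31 to 31.6 at day 7. In healthy replicate 4, the healthy library with the highest hepatocyte marker sum, it lay at 28.0 CPM, against 0.798 to 1.69 in the other healthy samples. The part of hepatocyte RNA in the Agmat values was not tested. The 14 genes had medians of 0.24, 0.40 and 0.08 on the 3 days.

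Of 22 further genes linked to alternative activation, 3 were called higher and 1 lower at day 1. Mrc1, the mannose receptor and a standard marker of alternatively activated macrophages that LSECs also carry, fell from 1546 ± 50.3 CPM (SD, n = 4) to 547 ± 115 (n = 2), a log2 fold change of -1.50 (SE 0.27, edgeR adjusted p = 0.00756). Il1rn, the interleukin-1 receptor antagonist, rose by 2.77 (SE 0.67, edgeR adjusted p = 0.0351) and was also called at day 3 (3.77) and day 7 (3.10). Tgm2, a transglutaminase, and Pparg, a nuclear receptor of lipid metabolism, rose by 2.04 and 1.41 at day 1. At day 3, Pparg and Il1rn were higher and Klf4 and Mrc1 lower, with log2 fold changes of -1.45 and -1.38 for the latter. Their medians were 0.49, 0.48 and 0.35.

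Around Cd163, 10 other genes of hemoglobin and heme clearance were tested. Hmox1, which degrades heme, rose from 140 ± 53.3 CPM (SD, n = 4) to 547 ± 378 (n = 2) at day 1, a log2 fold change of 1.96 (SE 0.40, edgeR adjusted p = 0.0133), and Slc40a1, the iron exporter, fell by 1.11 on the log2 scale (SE 0.28, edgeR adjusted p = 0.0403). Slc40a1 was lower at day 3 too (-1.43), and Lrp1, the receptor for hemopexin-bound heme, was higher at day 3 (2.72) and day 7 (2.68). Together these lists hold 68 tested genes, of which 12 were called at day 1, 13 at day 3 and 4 at day 7, beside shares of 4.06%, 7.19% and 3.18% of all tested genes.

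**Figure D4:**
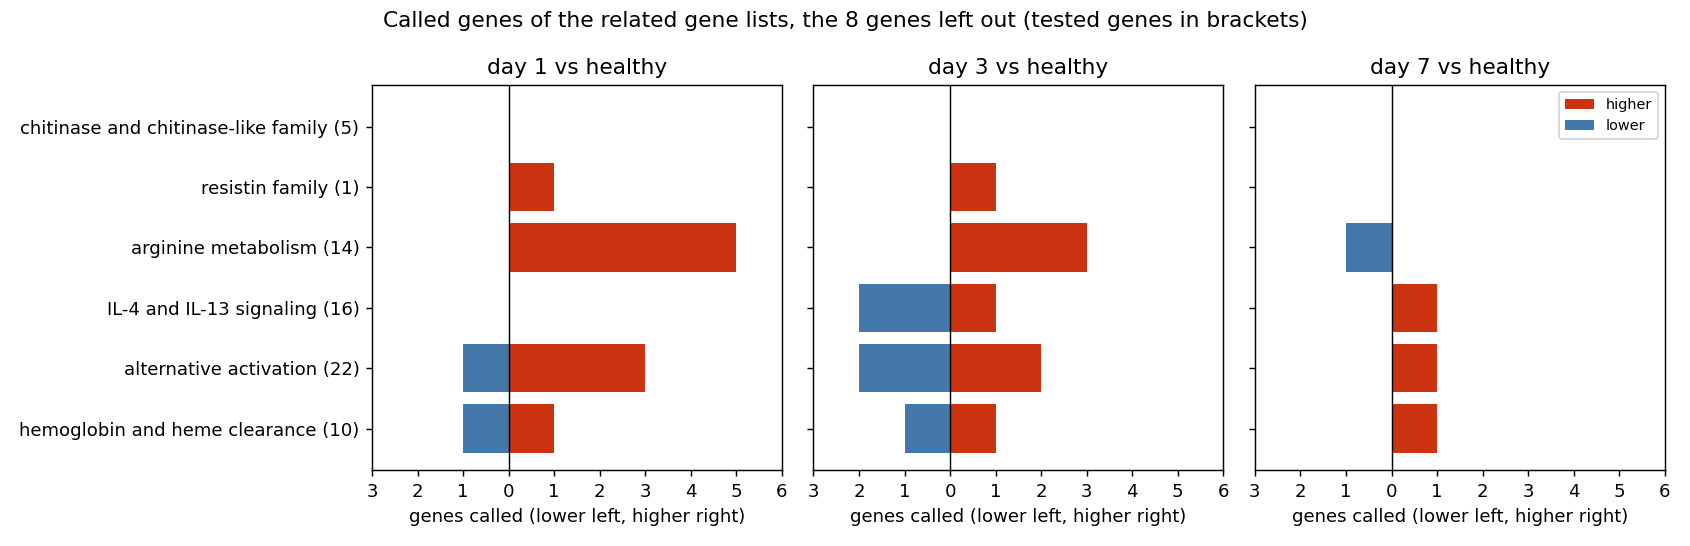
Bars count the genes of each related list, the 8 genes themselves left out, that edgeR called higher (to the right) or lower (to the left) than in healthy LSECs at day 1, day 3 and day 7, with the number of tested genes in brackets. Arginine metabolism had the longest bar, 5 genes higher at day 1, and no chitinase family gene was called on any day.

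The genes whose log2 CPM ran most closely with each member over the 14 samples differed between members, and these correlations share the samples, their depth and the group differences. For Chil1 they were Trem1 (Pearson r = 0.95), Cxcl3, Acod1, Il1f9 and Cyp4f18. For Chil3 they were the pseudogenes Rpsa-ps2 (0.96) and Rpsa-ps9, then Cyp4f18, Clec4e and Rpsa, and for Chil4 Gm47518 (0.93), Vmn2r67, Prr9, Clec2f and Plac8. Retnlg had the closest match of all, Mmp9 (0.99), followed by Cxcr2, Mrgpra2b, Tmem156 and Jaml, and Retnla was nearest to Ddx43 (0.90), Tmc3, Gm18665, Tsx and Gm12204. Arg1 ran with F5 (0.91), Aqp9, Lsr, C1rl and Dgat2, Il4ra with Klhl2 (0.95), Ampd3, Mamld1, Gramd4 and Nos3, and Cd163 with Siglece (0.94), Hmox1, Tmem26, C1qa and Kcnj10. Cxcr2 and Plac8 also stand in the neutrophil and monocyte marker lists, and C1qa in that of Kupffer cells.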

How the data were processed

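LSECs were sequenced in bulk in 14 samples. Per the labels and the methods, the authors ran STAR against GRCm38.p6 and StringTie, and deposited raw read counts per Ensembl gene in 1 column per sample. The annotation release and how the counts were made whole are not given in the sources used here. Groups and replicate numbers came from the sample titles. GENCODE vM21 named 54495 of 54524 genes. Genes were filtered with filterByExpr (minimum count 10, minimum total 15), which kept 26626, scaled with TMM and tested with edgeR 4.0.16 (R 4.3.3, quasi-likelihood test, 4 group means over 14 samples). Benjamini-Hochberg adjustment covered every tested gene, with a threshold of 0.05. The SE was taken as the size of the log2 fold change over the root of the F statistic. RPKM used the union exon length. Log2 CPM for correlations used a prior count of 2. Summed marker CPM was compared on the log2 scale (pseudocount 0.01) with two-sided exact permutation tests. The models were tested on simulated data. The labels do not state that replicates are separate animals, so p-values measure the spread between these samples, which may be technical.

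The members, the gene lists, the markers and the tests were chosen with earlier results of these data known. Named genes were the 8 members, called genes of the related lists (up to 6 per list and comparison, by size) and the 5 genes best correlated with each member. Other names were chosen after their values were seen. The fits were repeated with DESeq2 1.42.0, with limma 3.58.1 (voom, sample weights), with scaling by RLE or by library size alone, with 2 other filters, on only the 2 groups compared, with the replicate number as a block, and without each sample.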

Additional observations from a re-analysis of the deposited data

Results flagged for a closer look

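Samples within groups of 4 were compared for a value far from the rest, in 51 groups and measures, where chance gives about 1 such value in 20. Arg1 in healthy replicate 4, at 185 CPM, stood apart from 5.04 to 7.84 CPM in the other 3 healthy samples, with a gap that was 0.984 of the whole range. The hepatocyte marker sum of the same library, 8987 CPM, stood apart from 212 to 411 CPM, with a gap of 0.977 of the range.

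Of the differences between time points under the same contrast with healthy LSECs, 2 passed edgeR's quasi-likelihood test of the difference itself. Chil1 was lower at day 7 than at day 1 by a log2 fold change of -3.66 (adjusted p = 0.0463, lower in 4 of 4 samples), and Il4ra by -1.72 (adjusted p = 0.00256, lower in 4 of 4 samples).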

How the results depend on the processing

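The number of the 8 genes called at day 1 was 4, and 4 or 5 under DESeq2, limma-voom, the other scalings and filters and the fit of only the 2 groups. It ranged from 0 to 4 when 1 sample was left out (0 without day 1 replicate 1, 2, Chil1 and Il4ra, without any other day 1 or healthy sample). At day 7 none was called by edgeR, 3 had an unadjusted p under 0.05, limma-voom called 0, and DESeq2 called 2 (Chil1 with an adjusted p of 0.0241 and Chil3 with 0.0275). The range was 0 to 1 when 1 sample was left out, the 1 being Arg1 without healthy replicate 4. Between day 7 and day 1, 2 genes were called, against 4 with limma-voom, 4 in a fit of only the 2 groups, 1 with library size only, and 0 to 3 when 1 sample was left out (0 without day 1 replicate 1). Of the 68 listed genes, DESeq2 called 19 in place of 12 at day 1, 20 in place of 13 at day 3, 9 in place of 4 at day 7 and 16 in place of 7 between day 7 and day 1. Arg1 at day 1 reversed from -0.68 to 1.51 with limma-voom, and lay between -1.92 and 2.34 when 1 sample was left out (2.34 without healthy replicate 4). Retnla at day 1 lay between -1.88 and 0.44 (0.44 without day 1 replicate 2). The eosinophil and basophil marker sum went from 0.01 to -0.036 with library size only. The cause of these changes was not tested. Over all tested genes, edgeR called 1080 at day 1, 1915 at day 3, 846 at day 7 and 2142 between day 7 and day 1, DESeq2 2720, 3601, 2596 and 4430, limma-voom 4308, 7265, 7047 and 7610, and the fits of only the 2 groups 2327, 1108, 3156 and 4465.

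Among healthy, day 3 and day 7 samples, the correlation of deviations between the 12 pairs with the same number lay between -0.232 and 0.0577, so the numbers were not taken to pair the samples. The 2 day 1 samples were not in this check. With the replicate number as a block, 1 of the 8 genes was called at day 1 (Il4ra) and 1 between day 7 and day 1, 6 of the listed genes were called at day 1, Arg1 at day 1 was 0.57, and 594, 1385, 435 and 1084 of all tested genes were called in the 4 comparisons. Day 1 had 2 samples, so an exact permutation test could not give a p under 0.0667, and Chil4 rested on 18 counts in all at day 1.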

Other observations

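Chil3 reads per Retnlg read were highest in day 3 replicates 1 to 3. Day 3 replicates 1 to 3 held 3.37, 3.03 and 3.04 Chil3 reads per Retnlg read, although their Chil3 counts were 24486, 16956 and 925, and replicate 4 held 696 Chil3 reads and no Retnlg read. The ratio was 0.148, 0.125, 0.112 and 0 in healthy replicates 1 to 4, 0.0636 and 0.309 at day 1, and 1.32, 0.928, 0.106 and 0.278 at day 7. Chil1 reads per Retnlg read were 0.0996 and 0.132 at day 1 and 0.0583 to 0.128 in healthy samples. These ratios were chosen after the values were seen and carry no test.

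Across the 14 samples, log2 CPM of Chil1 and Chil3 correlated with r = 0.88, Chil3 and Chil4 with 0.83, Chil1 and Chil4 with 0.77, Il4ra and Cd163 with 0.71 and Chil1 and Retnlg with 0.66. Retnla had no r above 0.30 with any other member. These are descriptions over samples that share their groups, and no p is given.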
